A study of Mus musculus with 10 samples.

Results

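Eph receptors and ephrins were examined in mouse lens epithelium from wild-type (WT) mice and from 2 transgenic lines, OVE853 and OVE918, as the 10 rows of the deposited count table named Epha1, Epha2, Epha4, Epha7, Ephb2, Ephb4, Efna1, Efna5, Efnb1 and Efnb2. These are 10 of the 50763 genes in the table, which also holds 12 other genes of the same family. RNA-seq covered 10 libraries (WT 3, OVE853 3 and OVE918 4). All mice were 3 weeks old and of the FVB/N background. Both transgenic lines carry a secreted, constitutively active human TGF-β1 driven by the lens-specific αA-crystallin promoter, they were homozygous, and they had formed anterior subcapsular plaques. Each library was made from the whole epithelium pooled from up to 9 mice (WT and OVE853) or up to 7 mice (OVE918), so that plaque and intact epithelium are mixed within a library and single animals cannot be told apart. The libraries held 24073311 to 31908525 counts, and counts of the mouse gene Tgfb1 rose in both lines (log2 fold change 2.69 ± 0.13 in OVE853 and 3.83 ± 0.13 in OVE918, ± SE). Reads of the human transgene that cross-map to mouse Tgfb1 are part of these counts, as the study states, so that the mouse gene and the transgene cannot be told apart here.

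Eph receptors are receptor tyrosine kinases, and their ligands, the ephrins, are themselves held on the surface of neighboring cells, so that signaling needs cell contact and can run into both cells. A-type ephrins are tethered by a lipid anchor and mostly bind EphA receptors, whereas B-type ephrins span the membrane and mostly bind EphB receptors, with Epha4 known to bind both kinds. In the lens, Epha2 and ephrin-A5 are known for keeping the epithelium and the rows of fiber cells ordered, and mutations of EPHA2 in people and loss of either gene in mice are known to cause cataract.

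Epha2 and Efna1 were higher than in WT in both TGF-β1 lines, by 1.45 to 1.98 fold, and Ephb4 was 1.72-fold higher in OVE853. Ephb4 was also 1.41-fold higher in OVE918, where it passed the test with all libraries but in only 1 of the 10 fits with a library left out. By contrast, Efnb1 was 1.38-fold lower in OVE918 and Epha1, a receptor at a low level, was 3.72-fold and 5.76-fold lower in OVE853 and OVE918. Efna5 and Efnb2 did not pass the test in either line with all libraries. The 4 receptors Epha1, Epha4, Epha7 and Ephb2 were at low levels and were highest in a single library, WT replicate 3. The WT values of Epha4, Epha7 and Ephb2 depended largely on it, whereas those of Epha1 also differed between the other WT libraries (3.22 and 8.62 CPM). Without WT replicate 3, Epha1 was 2.68-fold lower in OVE853 and 4.08-fold lower in OVE918.

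**Figure D1:**
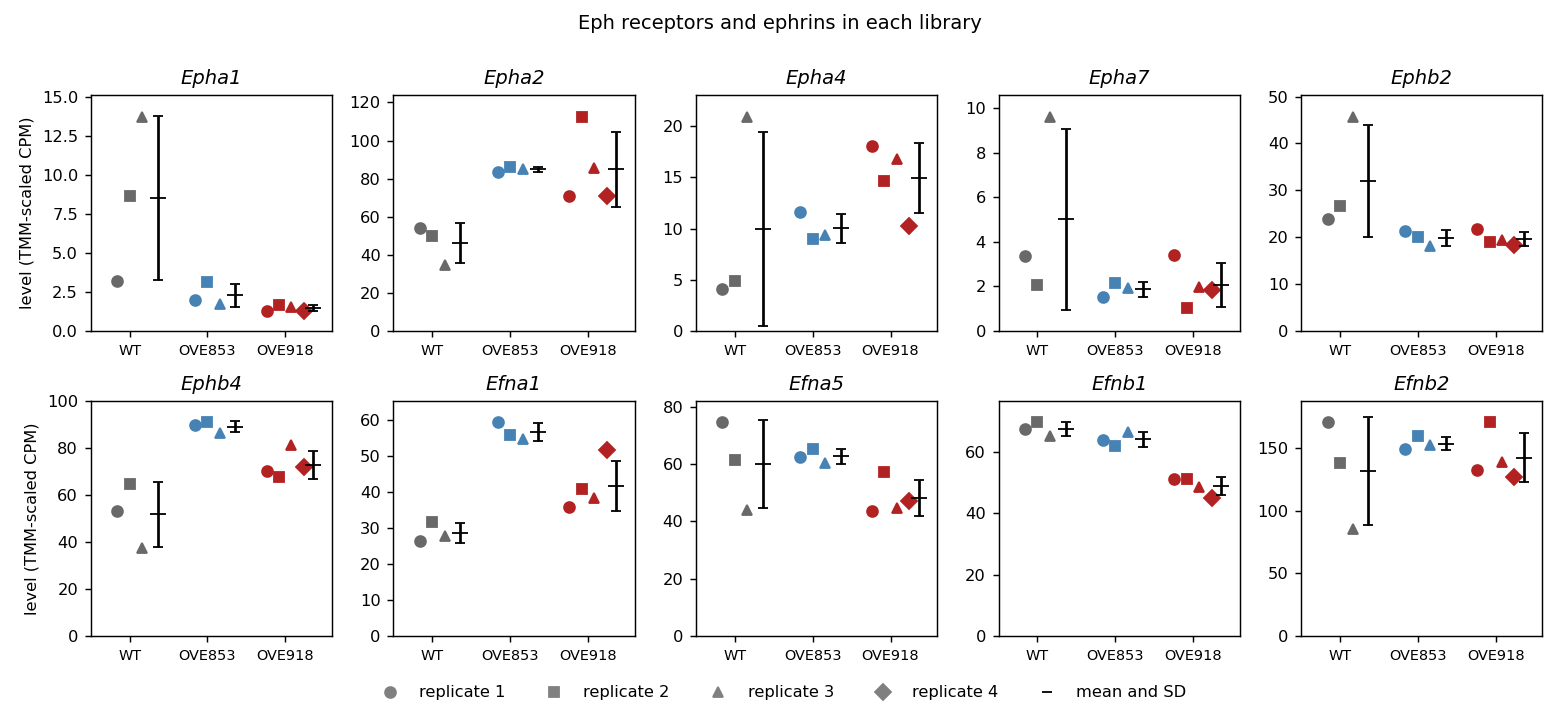
Level of each of the 10 genes in every library, in CPM (counts scaled to library size) adjusted by TMM factors, with 1 symbol per replicate and the mean and SD of each group beside it; each panel has its own axis, which starts at 0. Epha2, Ephb4 and Efna1 lay above all WT libraries in both lines, and WT replicate 3 (triangle) was the highest of the 10 libraries for Epha1, Epha4, Epha7 and Ephb2.

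Levels are given as CPM, counts divided by the library total adjusted with TMM factors, which compare a gene between libraries but not with another gene. Changes are log2 fold changes with their standard error (SE) from edgeR's quasi-likelihood test, and FDR is the Benjamini-Hochberg adjusted p over all genes tested in that comparison. The test covered 11097 genes with at least 2 FPKM (counts scaled for exon length and library size) in 5 of the 10 libraries, and 6 of the 10 genes passed this minimum. A gene counted as differentially expressed (called) when its FDR was 0.05 or less and its log2 fold change was 1 or more in size. WT replicate 3 stood apart from the other 9 libraries. It had the highest level of 12 of 12 retinal neuron markers and of 7 of 8 Müller glia markers, and its summed retinal neuron marker level was 1204 CPM, against 173 to 175 CPM in the other WT libraries, 46.5 to 107 CPM in OVE853 and 40.8 to 187 CPM in OVE918. The count was 3 of 8 for pigmented epithelium, 0 of 10 for macrophages and 0 of 5 for erythrocytes. It was 2 of 10 for photoreceptors, whose summed level was higher in OVE918 replicate 1 (88.1 CPM) than in WT replicate 3 (72.2 CPM). Summed Müller glia markers were at 4412 CPM in it and at 2184 and 1934 CPM in the other WT libraries. They were at 1169 to 1338 CPM in OVE853 and 682 to 965 CPM in OVE918. This sum, carried mostly by Apoe and Glul, thus also separated WT from both lines. Of the 8, Rlbp1, Glul, Aqp4, Apoe and Abca8a were higher in all WT libraries, whereas Slc1a3, Kcnj10 and Car14 overlapped. Of 9 markers of the non-pigmented ciliary epithelium, 6 were higher in all WT libraries than in all transgenic ones (Best2, 31.0 to 51.4 against 0.877 to 9.15 CPM; Slc6a13, 39.9 to 76.9 against 1.19 to 7.73 CPM; Wfdc1, Optc, Zic1 and Opn5, the last at 2 counts or fewer) and 1, Car2, was lower. Of 7 cornea markers, Aldh3a1 alone was abundant (236, 937 and 1611 CPM in WT and 26.3 to 92.4 CPM in the transgenic libraries). Krt12 was at 0.76, 0.65 and 4.91 CPM in WT and at 0 in all transgenic libraries, and the other 5 were at or under 2.21 CPM throughout. Markers of lens epithelium were present in every library, at summed levels of 105257 to 196795 CPM, carried mostly by Cryaa and Cryab. Of these 12 markers, Gja1 (512 to 572 CPM in WT, 55.6 to 127 CPM in transgenic libraries) and Sox2 were higher in all WT libraries. The 10 lens fiber markers summed to 75149 to 88882 CPM in WT. Their sum was 46446 to 66033 CPM in OVE853 and 67410 to 128967 CPM in OVE918. OVE918 replicates 1 and 4 were highest and OVE853 replicate 3 was lowest in both this sum and that of the lens epithelium markers. The epithelium sum thus cannot tell lens epithelium from fiber cells. Of the 10 fiber markers, 0 separated WT from the transgenic libraries, and their part in the results was not tested. In bulk samples such as these, fewer cells of a type and less RNA per cell cannot be told apart.

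Of the 6 genes tested, 3 were higher and 0 lower in OVE853 at an FDR of at most 0.05, where 8.10% of all genes tested were higher and 7.69% lower. In OVE918, 3 were higher and 1 lower, where 8.00% of all genes were higher and 11.0% lower. With the fold minimum added, 0 of the 6 were called in either line by edgeR, although 3 and 4 had an unadjusted p under 0.05 and DESeq2 also called 0, and the call covered 4.42% of all genes tested in OVE853 and 5.60% in OVE918. Their log2 fold changes had a median of 0.50 (OVE853) and 0.30 (OVE918), against medians of -0.01 and 0.01 over all genes tested. The libraries of the line and of WT did not overlap for 3 of the 6 in OVE853 and for 4 of the 6 in OVE918, and the same was true of 45.4% and 27.2% of all genes tested. Both comparisons share the 3 WT libraries.

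Among the receptors, Epha2 (chromosome 4, 141028540 to 141056695, plus strand, GRCm39), the main EphA receptor of these libraries, was at 54.2, 49.7 and 34.4 CPM in the 3 WT libraries. It was at 83.6, 86.2 and 85.2 CPM in OVE853 and at 70.8, 112, 85.6 and 70.6 CPM in OVE918. All 7 transgenic libraries lay above all 3 WT libraries, and the OVE853 libraries were much closer to each other than the OVE918 libraries were. Epha2 rose over WT by a log2 fold change of 0.88 ± 0.20 in OVE853 (1.84-fold, edgeR FDR 0.0143) and 0.88 ± 0.19 in OVE918 (1.84-fold, edgeR FDR 0.00767). Between the lines the difference was 0.00, with a 95% interval from -0.40 to 0.40. WT replicate 3 was the lowest WT library, and without it the change was 0.71 in both lines (edgeR FDR 0.0296 in OVE853 and 0.0185 in OVE918). Without OVE853 replicate 3, the change in OVE853 was 0.87 at an FDR of 0.0513 by edgeR. Without WT replicate 1 it was 1.01 in both lines, past the fold minimum.

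Ephb4 (chromosome 5, 137348274 to 137376931, plus strand), the EphB receptor best known as the partner of ephrin-B2 in blood vessels, was at 53.2, 64.8 and 37.3 CPM in WT. It was at 89.7, 90.9 and 86.3 CPM in OVE853 and at 70.3, 67.6, 81.1 and 71.9 CPM in OVE918. The groups did not overlap, and the 4 OVE918 libraries lay between those of WT and OVE853. Ephb4 rose by 0.78 ± 0.16 on the log2 scale in OVE853 (1.72-fold, edgeR FDR 0.0104) and 0.49 ± 0.15 in OVE918 (1.41-fold, edgeR FDR 0.0473). The rise in OVE853 passed the test whichever library was left out, whereas that in OVE918 passed it in 1 of the 10 cases (WT replicate 2 left out) and had an edgeR FDR of 0.0582 to 0.115 in the other 9, which included WT replicate 3 (log2 fold change 0.30, FDR 0.0895). The lines did not differ past the threshold (-0.29 ± 0.15, edgeR FDR 0.272). Of 10 endothelial markers, Cdh5 was higher in all transgenic libraries (3.41 to 7.25 CPM) than in all WT libraries (0.28 to 1.70 CPM), Kdr was lower in all of them, and the other 8 overlapped. The summed level of the 10, carried mostly by Kdr and Egfl7, was 63.6 to 155.8 CPM in WT, 48.4 to 68.7 CPM in OVE853 and 57.3 to 77.8 CPM in OVE918. The part of these markers in the Ephb4 result was not tested.

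The ligand Efna1 (ephrin-A1, chromosome 3, 89179037 to 89188449, minus strand), an A-type ephrin that binds Epha2, was at 26.5, 31.6 and 27.7 CPM in WT. It was at 59.4, 55.9 and 54.6 CPM in OVE853 and at 35.9, 40.7, 38.3 and 51.5 CPM in OVE918. The groups again did not overlap, and OVE918 replicate 4 was the OVE918 library closest to OVE853. Efna1 rose by 0.99 ± 0.13 on the log2 scale in OVE853 (1.98-fold, edgeR FDR 0.00085), just under the fold minimum, and 0.54 ± 0.13 in OVE918 (1.45-fold, edgeR FDR 0.0123). Both passed the FDR whichever library was left out, and without WT replicate 3 they were 0.96 and 0.52. The change in OVE853 exceeded the fold minimum without WT replicate 2 (1.06) and without OVE853 replicate 3 (1.00). Efna1 was lower in OVE918 than in OVE853 by 0.44 on the log2 scale (SE 0.12), which did not pass edgeR's test (FDR 0.0867), and the 95% interval ran from -0.71 to -0.17. DESeq2 gave an adjusted p of 0.0255 for this difference, and limma voom with sample weights gave 0.00177. Voom gave OVE918 replicate 4 a low weight (0.27). Without OVE918 replicate 4, edgeR gave a difference of -0.56 and an FDR of 0.0363.

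Efnb1 (ephrin-B1, chromosome X, 98179680 to 98205454, plus strand), a membrane-spanning ligand of EphB receptors, was at 67.4, 69.6 and 65.1 CPM in WT and at 63.7, 61.7 and 66.4 CPM in OVE853. In OVE918 it was at 51.1, 51.0, 48.5 and 44.8 CPM. Libraries of WT and OVE853 overlapped, whereas all 4 OVE918 libraries lay below the other 6. Efnb1 fell by 0.46 on the log2 scale in OVE918 (SE 0.08, 1.38-fold lower, edgeR FDR 0.00163), and this passed the test whichever library was left out. In OVE853 the change was -0.08 ± 0.08 (edgeR FDR 0.53).

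**Figure D2:**
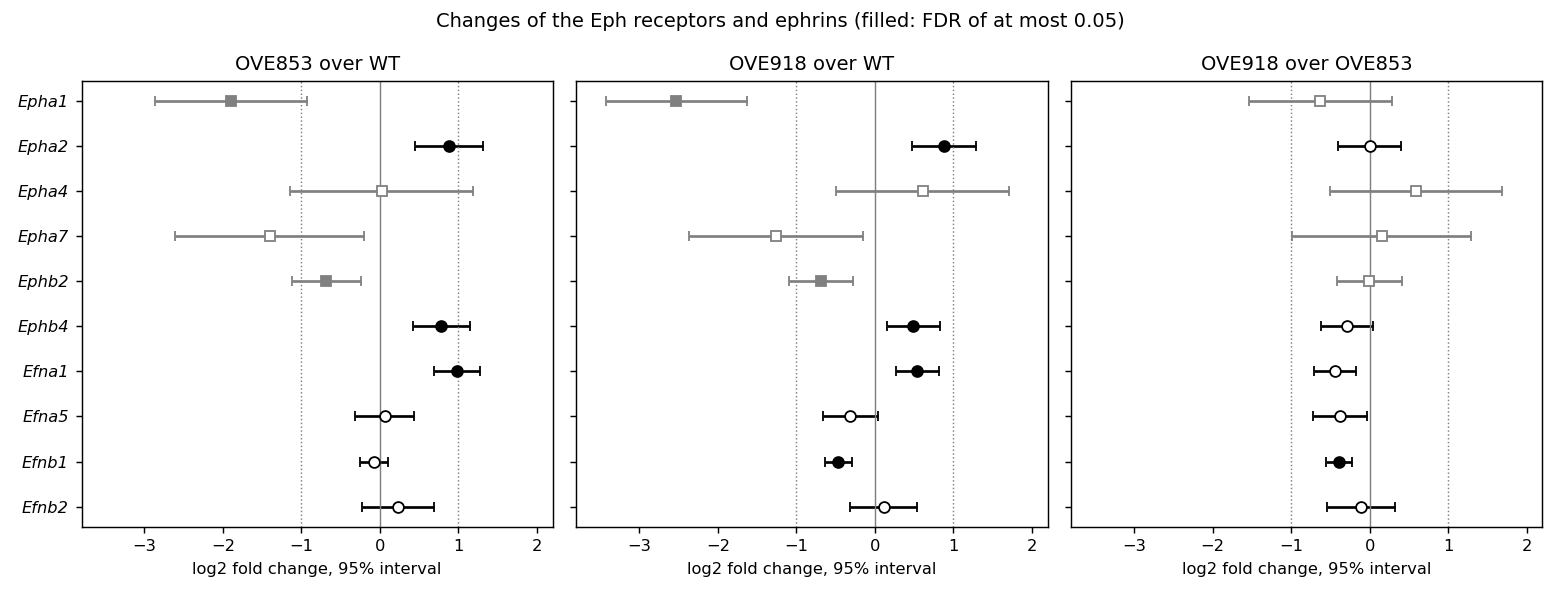
Log2 fold change of each gene with its 95% interval for OVE853 over WT, OVE918 over WT and OVE918 over OVE853. Black circles are from the test of 11097 genes and grey squares from the test of 18058 genes that was used for the 4 low receptors; filled symbols have an FDR of at most 0.05, and dotted lines mark a log2 fold change of -1 and 1. The intervals of Epha2 lay above 0 in both lines, and those of Epha4 crossed 0 in all 3 comparisons.

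Efnb1 was also the single gene of the 6 tested that differed between the transgenic lines at an FDR of at most 0.05 (OVE918 over OVE853, -0.39 ± 0.08, 1.31-fold lower, edgeR FDR 0.0433). Of all genes tested, 1.32% differed between the lines at this FDR and 0.487% with the fold minimum added, by which 0 of the 6 were called by edgeR and by DESeq2. This difference had the same sign whichever library was left out, but it passed the test in 3 of the 10 cases (WT replicate 1, WT replicate 3 or OVE918 replicate 2 left out) and had an edgeR FDR of 0.0614 to 0.218 in the other 7. Tgfb1 counts, which hold reads of mouse gene and transgene together, were 2.22-fold higher in OVE918 than in OVE853.

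The remaining ligands did not pass the test with all libraries. Efna5 (ephrin-A5, chromosome 17, 62909956 to 63188312, minus strand), the ephrin studied most in the lens, was at 74.6, 61.4 and 43.8 CPM in WT. It was at 62.4, 65.3 and 60.3 CPM in OVE853 and at 43.7, 57.2, 44.8 and 47.0 CPM in OVE918. WT replicate 3 lay within the range of OVE918, whereas the other WT libraries lay above it. The log2 fold change was 0.06 ± 0.17 in OVE853 (edgeR FDR 0.81) and -0.31 ± 0.16 in OVE918 (edgeR FDR 0.196). When WT replicate 3 was left out, Efna5 fell by 0.50 in OVE918 (edgeR FDR 0.0177) and its change in OVE853 was -0.12 (edgeR FDR 0.599).

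Efnb2 (ephrin-B2, chromosome 8, 8667226 to 8711249, minus strand), the membrane-spanning ligand of Ephb4, was at 171, 138 and 85.2 CPM in WT. It was at 149, 159 and 152 CPM in OVE853 and at 132, 171, 139 and 127 CPM in OVE918. The WT libraries spanned the whole range of the other groups, and WT replicate 3 lay below it. Efnb2 had log2 fold changes of 0.23 ± 0.21 in OVE853 (95% interval -0.23 to 0.68, edgeR FDR 0.462) and 0.11 ± 0.19 in OVE918 (-0.32 to 0.54, edgeR FDR 0.727). These changes were, without WT replicate 3, -0.01 and -0.12.

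The 4 low receptors were read from a second fit, chosen after their values were seen, of the 18058 genes that pass edgeR's filterByExpr. Epha1 (chromosome 6, 42335406 to 42350208, minus strand), a receptor typical of epithelia such as skin, was at 3.22, 8.62 and 13.7 CPM in WT. It was at 1.99, 3.11 and 1.70 CPM in OVE853 and at 1.28, 1.64, 1.56 and 1.29 CPM in OVE918. The WT libraries were far apart, yet all 3 lay above all 7 transgenic libraries. Fitted changes were -1.90 ± 0.44 in OVE853 (edgeR FDR 0.019) and -2.53 ± 0.41 in OVE918 (edgeR FDR 0.0018). Epha1 was thus called in both lines, where 3.72% of the genes of this fit were called lower in OVE853 and 5.34% in OVE918. Leaving out WT replicate 3 gave changes of -1.42 (edgeR FDR 0.038) and -2.03 (edgeR FDR 0.00278). The call in OVE853 was lost without OVE853 replicate 1 or replicate 3 (edgeR FDR 0.0799 and 0.0836). The cornea markers Aldh3a1 and Krt5 stood in the same order as Epha1 in the 3 WT libraries, with the keratins Krt12 and Krt5 at or under 4.91 CPM. Markers of other cell types, among them Calb2, Stmn3, Rlbp1 and the lens marker Pdpn, stood in this order too. Like Epha1, 5 of 8 Müller glia markers and 6 of 9 ciliary markers were higher in all WT libraries than in all transgenic ones, and the part of any of these markers in this result was not tested.

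Ephb2 (chromosome 4, 136374850 to 136563351, minus strand), an EphB receptor known from axon guidance, was at 23.8, 26.6 and 45.7 CPM in WT. It was at 21.3, 20.1 and 18.0 CPM in OVE853 and at 21.6, 18.9, 19.5 and 18.3 CPM in OVE918. All WT libraries lay above the transgenic ones, WT replicate 3 by far the most. Ephb2 had log2 fold changes of -0.68 ± 0.20 in OVE853 (edgeR FDR 0.0461) and -0.68 ± 0.18 in OVE918 (edgeR FDR 0.0273), where 7.02% and 10.0% of the genes of this fit were lower at an FDR of at most 0.05. With the other 9 libraries alone the changes were -0.38 (edgeR FDR 0.0616) and -0.36 (edgeR FDR 0.0483). The FDR in OVE853 was above 0.05 in 8 of the 10 cases with 1 library left out, all but WT replicates 1 and 2, and that in OVE918 in 3 of the 10 (OVE918 replicate 2, 3 or 4 left out). Retinal neuron and Müller glia markers were also highest in WT replicate 3, and their part in this result was not tested.

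Epha4 (chromosome 1, 77343822 to 77492816, minus strand), the receptor for ephrins of both types, was at 4.11, 4.89 and 20.9 CPM in WT. It was at 11.6, 9.01 and 9.40 CPM in OVE853 and at 18.0, 14.7, 16.8 and 10.2 CPM in OVE918. WT replicate 3 was the highest of all libraries and the other WT libraries were the lowest of all. With all libraries the log2 fold change was 0.02 ± 0.52 in OVE853 (edgeR FDR 0.981) and 0.61 ± 0.49 in OVE918 (edgeR FDR 0.43). Without WT replicate 3 it was 1.12 ± 0.23 (edgeR FDR 0.0114) and 1.73 ± 0.23 (edgeR FDR 0.000387), which passes both minimums in each line. Limma voom, which weights libraries by their quality, gave 0.91 (adjusted p 0.039) and 1.57 (adjusted p 0.00225) with all libraries. Its weight was lowest for WT replicate 3 (0.24) and next lowest for OVE918 replicate 4 (0.27). The voom result is therefore not separate from leaving WT replicate 3 out. The level of Epha4 in WT thus rests on whether WT replicate 3 is counted.

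**Figure D3:**
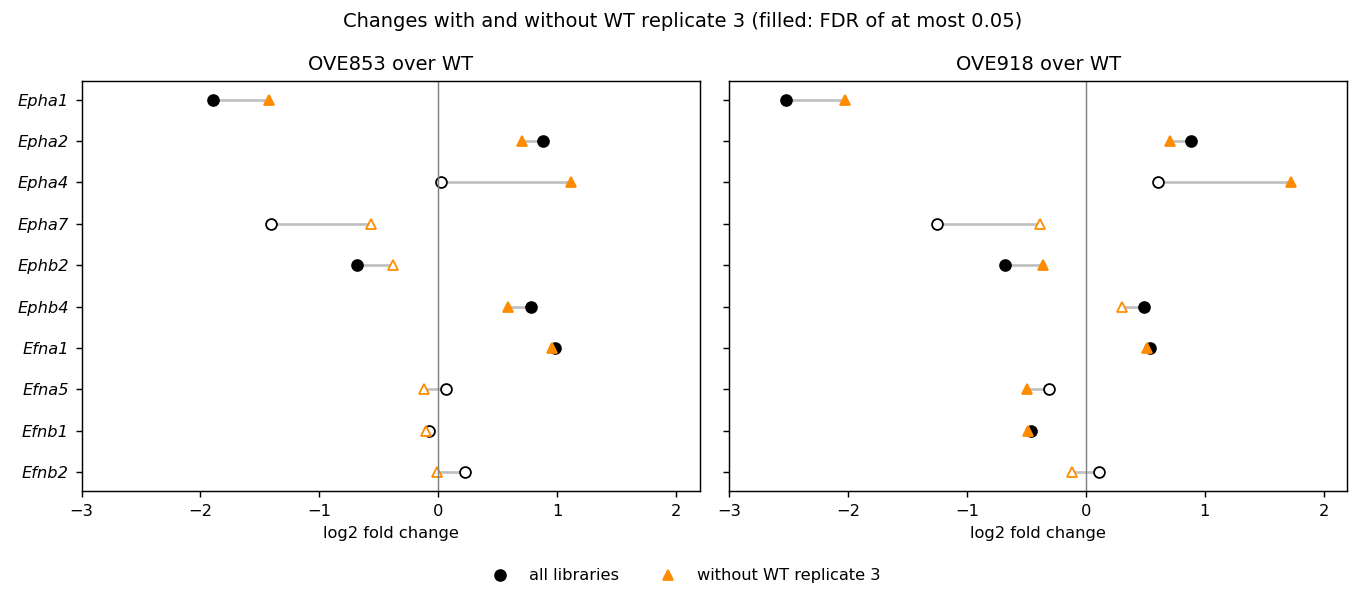
Log2 fold change of each gene over WT with all libraries (black circles) and without WT replicate 3 (orange triangles), in OVE853 (left) and OVE918 (right); filled symbols have an FDR of at most 0.05. Epha4 moved from 0.02 to 1.12 and from 0.61 to 1.73, Epha7 moved toward 0, and Efna1 and Efnb1 hardly moved.

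Epha7 (chromosome 4, 28813034 to 28967507, plus strand), an EphA receptor mainly known from the nervous system, had the lowest mean FPKM of the 10 genes in each group. Its FPKM overlapped that of Epha4 in WT and that of Epha1 in OVE918. It was at 3.35, 2.04 and 9.61 CPM in WT, at 1.51, 2.15 and 1.94 CPM in OVE853 and at 3.38, 1.04, 1.97 and 1.85 CPM in OVE918. Apart from WT replicate 3, the groups overlapped. The log2 fold change was -1.40 ± 0.55 in OVE853 (edgeR FDR 0.106) and -1.25 ± 0.50 in OVE918 (edgeR FDR 0.111). Without WT replicate 3 it was -0.57 (edgeR FDR 0.454) and -0.39 (edgeR FDR 0.608), whereas without WT replicate 2 it was -1.77 and -1.60 (edgeR FDR 0.0468 and 0.0442).

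Levels of different genes were compared only per length, as TMM-scaled FPKM. In WT the order was Efnb2 (26.2 ± 8.61, SD, n = 3), Efnb1 (20.3 ± 0.68), Efna1 (19.3 ± 1.82), Ephb4 (11.9 ± 3.17), Epha2 (11.8 ± 2.65) and Efna5 (11.4 ± 2.94). Ephb2 (2.92), Epha1 (2.59), Epha4 (1.58) and Epha7 (0.65) followed. Neighbors in this order overlapped in their WT libraries, except that Efna1 lay above Ephb4 and Efna5 above Ephb2 in all of them. In OVE853 the order became Efna1 (38.2 ± 1.68), Efnb2 (30.6 ± 1.02), Epha2 (21.7 ± 0.34), Ephb4 (20.4 ± 0.55), Efnb1 (19.3 ± 0.71) and Efna5 (11.9 ± 0.49), and of these neighbors only Ephb4 and Efnb1 overlapped. In OVE918 Efnb2 (28.4 ± 3.91, n = 4) and Efna1 (28.1 ± 4.66) overlapped at the top, followed by Epha2 (21.6 ± 5.02), Ephb4 (16.7 ± 1.34), Efnb1 (14.7 ± 0.89) and Efna5 (9.17 ± 1.18), and from Ephb4 downward these neighbors did not overlap. The place of Efna1 depends on its exon length, which is 1482 bases in the transcripts used here and 3430 bases over all its coding transcripts. With that length Efna1 was at 8.33 FPKM in WT, 16.5 FPKM in OVE853 and 12.1 FPKM in OVE918, which put it at rank 6 in WT and rank 5 in each line, and Efnb2 was first in each group. The 4 ephrins made up 70.9% ± 3.13 of the FPKM of the 10 genes in WT, 68.3% ± 0.28 in OVE853 and 65.1% ± 2.33 in OVE918. The ranges of the groups overlapped (67.8% to 74.1%, 68.0% to 68.5% and 62.7% to 68.2%). With the 12 other family genes added, receptors made up 36.1% ± 4.12 in WT, 35.8% ± 0.09 in OVE853 and 39.3% ± 2.10 in OVE918.

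**Figure D4:**
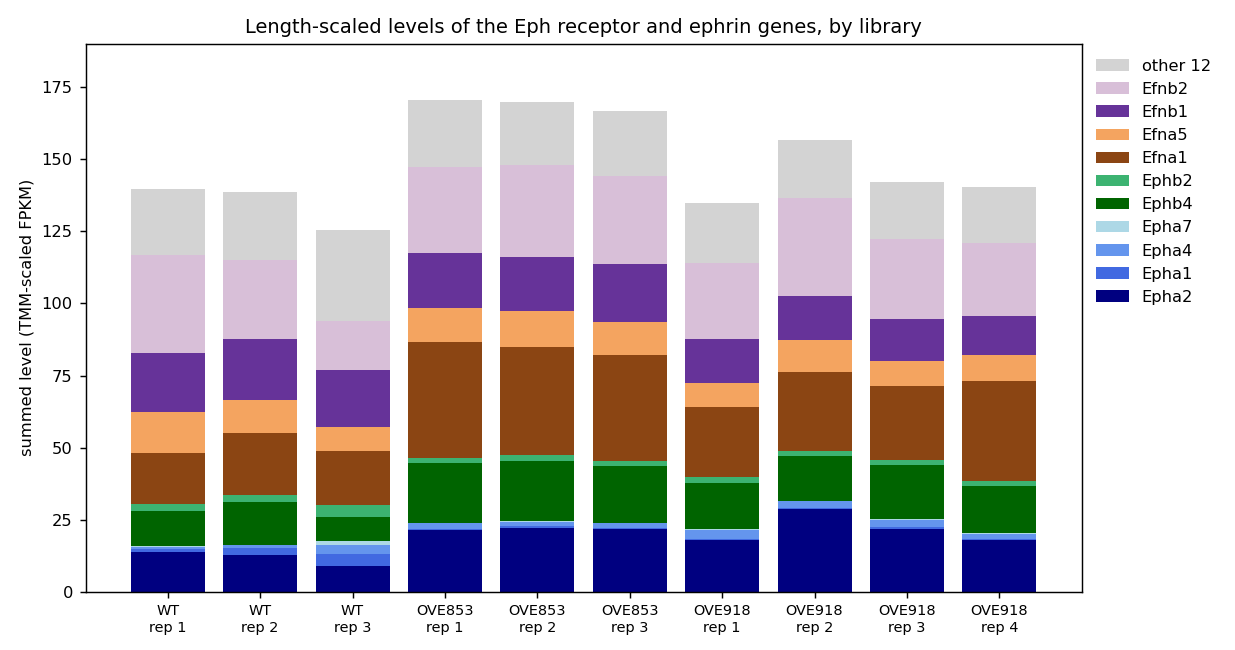
TMM-scaled FPKM of the Eph receptor and ephrin genes stacked for each library, with EphA receptors in blue, EphB receptors in green, A-type ephrins in orange and brown, B-type ephrins in purple and the other 12 genes of the family in grey. The brown Efna1 and the dark blue Epha2 segments were taller in every transgenic library than in every WT library, and the grey segment was tallest in WT replicate 3.

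The balance within each class is given as shares and ratios of FPKM. Epha2 made up 58.5% ± 22.0 of the summed EphA FPKM in WT (33.5% in WT replicate 3), 84.6% ± 1.80 in OVE853 and 81.2% ± 5.60 in OVE918. WT replicates 1 and 2 were at 75.1% and 66.9%, and the lowest OVE918 library was at 73.7%, so that these groups overlapped. Efna1 made up 51.7% ± 4.01 of the summed A-type ephrins in WT, 66.7% ± 0.84 in OVE853 and 65.0% ± 3.27 in OVE918. With lengths of coding transcripts these shares were 31.7%, 46.4% and 44.7%, lower but in the same order. The ratio of Epha2 to Efna5, the receptor and ligand known from the lens, was 1.04 ± 0.06 in WT, 1.82 ± 0.07 in OVE853 and 2.34 ± 0.30 in OVE918, and its 3 WT values (0.97 to 1.08) stayed close, with Epha2 and Efna5 both at their lowest WT level in WT replicate 3. The ranges of this ratio did not overlap between any of the 3 groups. These shares and ratios describe the libraries and were not tested.

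Of the 12 other family genes, 3 passed the FPKM minimum. Ephb6, a receptor without kinase activity, was at 13.6, 11.5 and 13.4 CPM in WT, at 23.1, 18.1 and 23.2 CPM in OVE853 and at 18.7, 17.5, 18.6 and 18.4 CPM in OVE918. No transgenic library overlapped WT, and Ephb6 rose by 0.74 ± 0.12 (edgeR FDR 0.00247) and 0.51 ± 0.11 (edgeR FDR 0.00925). Ephb3 (-0.21 and -0.34) and Efna4 (0.17 and -0.24) did not pass the test in either line with all libraries. When WT replicate 3 was left out, Ephb3 joined the genes lower in OVE918, and 1 of the 3 was higher and 0 were lower in OVE853. In the second fit without that library, Ephb3 did not pass the test in OVE918 (-0.42, edgeR FDR 0.0534). Efna4 lies on chromosome 3 with Efna3 and Efna1, 10.4 kb from Efna3, which in turn lies 32.8 kb from Efna1. Efna3 was measured only in the second fit, with changes of 0.26 (edgeR FDR 0.561) and 0.05 (edgeR FDR 0.919), so that Efna1 was the single gene of this cluster that passed the test. Epha1 and Ephb6 lie on the same chromosome, 735.1 kb apart, and moved in opposite directions.

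In the second fit, which tested all 12 other family genes, 1 was higher and 4 were lower in OVE853, where 6.54% of the genes of this fit were higher and 7.02% lower. In OVE918, 1 was higher and 3 were lower, against 6.85% and 10.0%. The lower genes were Epha5, Epha6, Epha10 and Ephb1 in OVE853 and Epha3, Epha5 and Efnb3 in OVE918, at log2 fold changes of -0.88 to -2.70. Counts per library were low for several of them. Epha6 had 7 to 39 in WT and 3 to 4 in OVE853. Ephb1 had 48 to 239 and 17 to 26, and Epha10 had 42 to 296 and 20 to 32, in the same groups. Epha3 had 20 to 103 in WT and 0 to 19 in OVE918. Epha8, Epha6, Epha10, Ephb1 and Epha3 were 3.22 to 7.05 times higher in WT replicate 3 than in the mean of the other WT libraries, as were Epha4 (4.65 times) and Epha7 (3.56 times). In the fit without that library, 1 was lower in each line, Ephb1 in OVE853 (-1.93, edgeR FDR 0.0178) and Epha5 in OVE918 (-0.78, edgeR FDR 0.0245). Among the WT libraries, replicate 3 had the highest level of all 13 family genes under the FPKM minimum and of 0 of the 9 that passed it. Retinal neuron markers were highest in the same library, and their part in these values was not tested.

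Genes that act with the receptors were taken as 3 lists. Among adaptors, kinases and phosphatases that bind activated Eph receptors or ephrins, 22 of 24 were tested, and 0 were higher and 5 lower in OVE853 and 0 higher and 3 lower in OVE918 at an FDR of at most 0.05, where 8.10% (OVE853) and 8.00% (OVE918) of all genes tested were higher and 7.69% and 11.0% lower. These were Grb10, Src and Fyn in both lines and Nck2 and Grb2 in OVE853. Grb10, an adaptor that damps receptor tyrosine kinase signaling, had means of 17.5, 9.83 and 6.25 CPM in WT, OVE853 and OVE918 and was the single one called (OVE918, -1.49 ± 0.18, edgeR FDR 0.000277). Src and Fyn, kinases of the same family, fell by 0.67 and 0.38 in OVE853 and by 0.79 and 0.53 in OVE918. When WT replicate 3 was left out, Grb10 fell under the FPKM minimum and was not tested, and 2 of the remaining 21 were lower in each line, Src in both, Nck2 in OVE853 and Fyn in OVE918. Grb2 (edgeR FDR 0.0985) and Fyn (edgeR FDR 0.095) lost the test in OVE853. The median log2 fold change of this list was -0.05 in OVE853 and -0.06 in OVE918, against -0.01 and 0.01 over all genes tested.

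Among exchange factors, GTPases and their regulators, 16 of 20 were tested, with 3 higher and 1 lower in OVE853 and 3 higher and 2 lower in OVE918, against the same shares of all genes. Kalrn, an exchange factor that activates Rac and RhoA and acts below EphB receptors in neurons, was the single one called. It was at 9.88, 5.31 and 10.9 CPM in WT, 46.1, 37.2 and 41.7 CPM in OVE853 and 44.3, 46.5, 39.7 and 32.7 CPM in OVE918. All transgenic libraries lay far above WT, with log2 fold changes of 2.26 ± 0.24 (edgeR FDR 0.00018) and 2.23 ± 0.23 (edgeR FDR 8.43e-05). Arhgef19 (0.90 and 0.73) and the RhoA-dependent kinase Rock2 (0.53 and 0.33) were the others that rose in both lines. The Rac inhibitor Chn1, which acts below Epha4, fell in both (-0.96 and -0.86). Chn1 was at 57.6, 67.1 and 130 CPM in WT. Without WT replicate 3 its changes were -0.52 and -0.42 (edgeR FDR 0.0207 and 0.0341). Arhgef5 fell in OVE918 (-0.49). The counts without WT replicate 3 were 3 higher and 1 lower (OVE853) and 2 higher and 2 lower (OVE918), as Rock2 lost the test in OVE918 (edgeR FDR 0.0996).

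Among proteases and inhibitors linked to the shedding of Eph receptors and ephrins, 7 of 9 were tested, with 3 higher and 1 lower in each line, again beside 8.10% and 8.00% of all genes higher and 7.69% and 11.0% lower. Adam10, the protease known for cleaving A-type ephrins bound by Eph receptors, rose by 0.48 ± 0.14 (edgeR FDR 0.0422) and 0.46 ± 0.13 (edgeR FDR 0.0339). It lost the test in both lines without WT replicate 3 (0.35 and 0.33, edgeR FDR 0.111 and 0.0981). Mmp2, a matrix protease, and Timp1, an inhibitor of matrix proteases, were called in both lines, with changes of 1.40 and 1.86 for Mmp2 and of 2.41 and 3.34 for Timp1. Timp3, an inhibitor of several ADAM proteases, fell by 0.70 and 0.82. The other 3 passed it in both lines without that library. Of all 3 lists, 0 genes differed between the transgenic lines at an FDR of at most 0.05 by edgeR, while 4, 3 and 1 of the genes in these lists had an unadjusted p under 0.05. Arhgef5 (-0.46, edgeR FDR 0.0155) and Timp1 (0.93, edgeR FDR 0.0271) passed it between the lines once WT replicate 3 was left out.

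For each of the 6 genes tested, the genes whose log2 CPM followed it most closely over the 10 libraries were found by Pearson's r, as a description over libraries that share WT replicate 3 and the group differences; Spearman's rho for these pairs was 0.89 to 1.00. Epha2 was followed by Ears2 (r = 0.98) and Stt3b (r = 0.98), and Ephb4 by Qrich1 (r = 0.97) and Cep43 (r = 0.97). Efna1 was followed by Tmem176b (r = 0.96) and 1700017B05Rik (r = 0.95), and Efna5 by Gprc5c (r = 0.97) and Arsi (r = 0.97). Efnb1 was followed by Golm1 (r = 0.99) and Chrm1 (r = 0.98), and Efnb2 by Gm40283 (r = 0.98) and Spast (r = 0.98). None of these was another Eph receptor or ephrin.

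The promoters of a pair of genes that rose (Epha2 and Efna1) and of a pair that fell (Efnb1 and Epha1) are shown. They give the sequence just upstream of the canonical transcripts of genes whose RNA differed between a TGF-β1 line and WT. Each is the 250 bases before the start of the canonical transcript, in GRCm39 (GENCODE), 5′ to 3′ on the strand of the gene. Capitals mark CAGAC, the letters of a SMAD-binding element, on either strand (GTCTG on the other strand). The windows are chr4:141028290-141028539 (plus strand) for Epha2, chr3:89186955-89187204 (minus strand) for Efna1, chrX:98179430-98179679 (plus strand) for Efnb1 and chr6:42350209-42350458 (minus strand) for Epha1. None overlaps an annotated exon, but that of Efna1 lies inside the annotated span of its gene (89179037 to 89188449).
Epha2: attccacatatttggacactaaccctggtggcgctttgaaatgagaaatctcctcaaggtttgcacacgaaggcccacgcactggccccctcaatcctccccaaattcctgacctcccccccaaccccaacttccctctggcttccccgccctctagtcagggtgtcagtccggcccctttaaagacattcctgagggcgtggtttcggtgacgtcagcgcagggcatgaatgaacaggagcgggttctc
Efna1: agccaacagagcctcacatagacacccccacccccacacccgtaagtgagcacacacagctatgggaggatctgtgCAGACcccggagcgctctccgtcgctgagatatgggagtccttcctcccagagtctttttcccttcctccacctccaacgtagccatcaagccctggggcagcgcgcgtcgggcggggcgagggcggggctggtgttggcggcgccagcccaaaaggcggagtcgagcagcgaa
Efnb1: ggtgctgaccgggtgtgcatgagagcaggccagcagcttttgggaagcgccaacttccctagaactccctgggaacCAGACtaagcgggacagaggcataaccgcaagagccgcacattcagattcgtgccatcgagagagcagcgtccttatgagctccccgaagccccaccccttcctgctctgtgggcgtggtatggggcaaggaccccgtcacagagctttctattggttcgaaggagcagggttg
Epha1: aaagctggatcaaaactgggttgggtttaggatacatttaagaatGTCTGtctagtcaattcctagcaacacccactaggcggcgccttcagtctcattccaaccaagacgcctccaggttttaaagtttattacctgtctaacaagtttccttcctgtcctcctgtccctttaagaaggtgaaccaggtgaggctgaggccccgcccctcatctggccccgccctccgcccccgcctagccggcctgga

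CAGAC occurred in the windows of 5 of the 10 genes (Epha1, Epha4, Efna1, Efnb1 and Efnb2) and in 41.4% of 21240 promoters cut in the same way. The match began 174 bases before the start in both Efna1 and Efnb1, of which the first rose and the second fell or did not pass the test, and 205 bases before it in Epha1. Epha2, which rose in both lines, and Ephb4, which rose in OVE853 and less firmly in OVE918, held none. The windows of Epha4, Epha7, Ephb4 and Efnb2 overlapped annotated exons. CACCTG, a letter sequence bound by factors of the Snail and Zeb families, searched on both strands, occurred in 2 of the 10 and in 17.7% of the 21240 promoters. The palindrome GTCTAGAC occurred in 0 of the 10 (0.226% of the 21240 promoters), and the AP-1 letters TGANTCA in 0 of the 10 (6.22%). The 21240 promoters are those of protein-coding genes, with a single chromosome, which holds none of the 10 genes, left out. These counts describe letters in the windows and say nothing of binding.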

How the data were processed

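RNA-seq of lens epithelium was carried out on paired-end mRNA libraries. Reads had been trimmed by the authors with cutadapt (5.2) and aligned to mm39 with STAR (2.7.11b) before counting per RefSeq gene with featureCounts (2.0.8, reverse-stranded), and the authors deposited raw counts for 10 libraries. From these counts, TMM factors (0.880 to 1.11) and quasi-likelihood tests were computed with edgeR (4.0.16, R 4.3.3) in 1 no-intercept model of 3 groups, with Benjamini-Hochberg adjustment over all genes tested. Exon lengths for FPKM came from GENCODE vM39 transcripts, matched by symbol (43252 genes) or synonym (22), and 7489 genes without a length were not tested. The scripts were tested on simulated data. DESeq2 (1.42.0), limma voom (3.58.1), other filters and lengths, a replicate block and each library left out were tried as alternatives. The genes and lists were chosen with earlier results of these data known. Named genes are the 10 members, the other family genes, list genes past the FDR and the 2 closest correlates of each member tested; list genes past the FDR but short of the fold minimum were named after their values were seen. Replicates are separate pools, and SE and p cover the spread between them.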

Additional observations from a re-analysis of the deposited data

Results flagged for a closer look

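Efnb1 is the single result that met a rule for a closer look, because the test of the difference between the transgenic lines passed its threshold. The log2 fold change of OVE918 over OVE853 was -0.388 (edgeR FDR 0.0433), with all 4 OVE918 libraries (44.8 to 51.1 CPM) below all 3 OVE853 libraries (61.7 to 66.4 CPM). It was no longer past the threshold in 7 of the 10 fits with 1 library left out. No OVE918 library of any of the 10 genes stood outside its group by Dixon's criterion, and groups of 3 were not tested for this.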

How the results depend on the processing

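Of 378 values of the 6 tested genes under the alternatives, 338 kept their side of the FDR threshold, 34 were no longer past it, 6 came to pass it, and 14 changed sign, 0 of them past the FDR in either fit. These were Epha2 between the lines in 11 alternatives (near 0 with all libraries, up to 0.08 otherwise) and, without WT replicate 3, Efna5 in OVE853 (0.06 to -0.12) and Efnb2 in OVE853 (0.23 to -0.01) and OVE918 (0.11 to -0.12). The count of the 10 genes called with the fold minimum was 0 in each comparison; it became 1 in OVE853 and 1 in OVE918 with filterByExpr or with every gene that has a count (Epha1 in each case), and 3, 4 and 1 (OVE853, OVE918, OVE918 over OVE853) at the FDR alone. Leaving out 1 library gave 0 to 1 in each line. In the second fit, where the counts were 1, 1 and 0, DESeq2 gave 2 in OVE853 (Epha1 and Epha7) and voom gave 2 in OVE918 (Epha1 and Epha4), and leaving out 1 library gave 0 to 3 in OVE853 and 1 to 2 in OVE918. The ephrin share of FPKM in WT (70.9%) was 67.4% with lengths of coding transcripts and 67.2% with those of all transcripts, in which Efna1 is longer. A test against a fold of 2 (glmTreat) gave an FDR of 1 for each of the 6 genes. Ephb4 in OVE918 lost its FDR with voom (0.0522), filterByExpr (0.0522), every gene with a count (0.0537) and only the 2 groups compared (0.113). Efnb1 between the lines lost it with upper-quartile factors (0.055), filterByExpr (0.0703) and every gene with a count (0.107). By voom, in which WT replicate 3 had the lowest weight (0.24), Efna5 came to pass it in OVE918 (0.0131) and between the lines (0.0114).

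Replicate numbers did not pair the libraries: deviations from the group means correlated by -0.30 to 0.08 in the 9 same-numbered pairs. With the replicate block, in which OVE918 replicate 4 is alone, 0 of the 6 genes were called in any comparison, and the second fit gave 1, 1 and 0. Ephb4 in OVE918 (FDR 0.0993), Efnb1 between the lines (0.129) and Ephb2 in both lines (0.104 and 0.119) were no longer past the FDR under the block.

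The main limits are the 3 WT libraries and the low counts behind Epha1 and Epha7 (28 to 391 and 28 to 274 per library). Counts were also low for Epha3, Epha6, Epha10 and Ephb1. WT replicate 3 sets much of the WT mean and spread of Epha4, Epha7 and Ephb2. Epha1 is 2.32 times higher there than in the mean of the other WT libraries, which also lie apart (3.22 and 8.62 CPM). Gene lengths are those of GENCODE, and RNA levels say nothing of receptor protein or phosphorylation.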
